A study of Mus musculus with 12 samples.

Results

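The OxLDL response of WT macrophages was read from 6 of the 12 RNA-seq libraries of a mouse study on GPNMB in foam cell formation. OxLDL is oxidised low-density lipoprotein, and the cells were bone marrow-derived macrophages (BMDMs), which are grown from mouse bone marrow. The members were chosen by label: 3 libraries of WT macrophages without OxLDL and 3 libraries of WT macrophages given OxLDL, compared over all 15338 genes that passed a filter on low counts, of 54532 gene identifiers in the deposited table. The other 6 libraries hold macrophages of the GpnmbR150X genotype, 3 without and 3 with OxLDL, and are used here for the shared estimate of spread and for 1 test of whether the WT response differs. All 4 groups share 1 strain background, a DBA/2 by C57BL/6 cross that was bred back to C57BL/6, and 1 tissue of origin. The labels give no dose or duration of OxLDL, no age or number of animals and no batch, and they do not say whether the 3 libraries of a group came from separate cultures or animals. The p-values therefore measure the spread between these libraries, which may be technical. Untreated and OxLDL samples have separate runs of record numbers. A batch that followed treatment, if there was one, cannot be told apart from OxLDL in any result below.

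Macrophages take up oxidised lipoprotein through scavenger receptors, hydrolyse its cholesteryl esters in the lysosome, and store the freed cholesterol as droplets of re-esterified lipid or pass it to carriers outside the cell. Oxysterols and fatty acids from this cargo act on nuclear receptors: the liver X receptors (LXRs) drive cholesterol efflux genes, the peroxisome proliferator-activated receptors (PPARs) drive genes for fatty acid handling, and the sterol sensor of the endoplasmic reticulum lowers SREBP2, which drives cholesterol synthesis. Foam cells that fill with lipid in this way are the characteristic cells of the atherosclerotic plaque.

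The 6 WT libraries held 14838969 to 18027626 counted reads, so that 3 reads corresponded to 0.158 to 0.209 CPM (read counts scaled to a common library size with edgeR's TMM factors, the unit of every level given here). The TMM factors were 1.05 in each untreated library and 0.969 to 0.975 in the OxLDL libraries. On the first principal component, which held 75.0% of the variance over the 6 libraries, the 3 untreated libraries lay from -46.6 to -41.8 and the 3 OxLDL libraries from 44.3 to 45.6. No 2 replicates agreed within counting noise: the chi-square per degree of freedom between replicates was 2.31 to 4.76. Genes that define macrophages were present in every library, with Csf1r, the receptor for the growth factor M-CSF, at 1173 to 1251 CPM, Lyz2, the lysozyme of myeloid cells, named after its values were seen, at 13888 to 20721 CPM and Itgam, the integrin CD11b, at 279 to 318 CPM. Gpnmb itself had 5330 ± 37.8 CPM (SD, n = 3) in untreated WT libraries and 385 ± 23.9 CPM (SD, n = 3) in untreated R150X libraries, in which the allele carries a premature stop.

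Nearly as many genes rose with OxLDL as fell, but the falls were far larger. Of 15338 genes tested, 7025 (45.8%) passed an adjusted p of 0.05 in edgeR's quasi-likelihood test, adjusted by the Benjamini-Hochberg method, the threshold for every call below: 3481 (22.7%) rose and 3544 (23.1%) fell. At least 2-fold, 351 genes rose (2.29%) and 1104 fell (7.2%). At least 4-fold, 31 rose and 336 fell, and 114 genes fell and 0 rose at least 16-fold. The median log2 fold change was 0.41 among genes that rose and -0.67 among genes that fell. The libraries of the 2 groups did not overlap for 8569 genes (55.9%). These shares are large, and the counts in the gene lists below are to be read against them. The even split depends on the scaling: without TMM, by library size alone, 2244 genes rose and 4858 fell, so that 31.6% of calls were rises against 49.6% with TMM, and the median log2 fold change of all genes moved by -0.11.

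**Figure D1:**
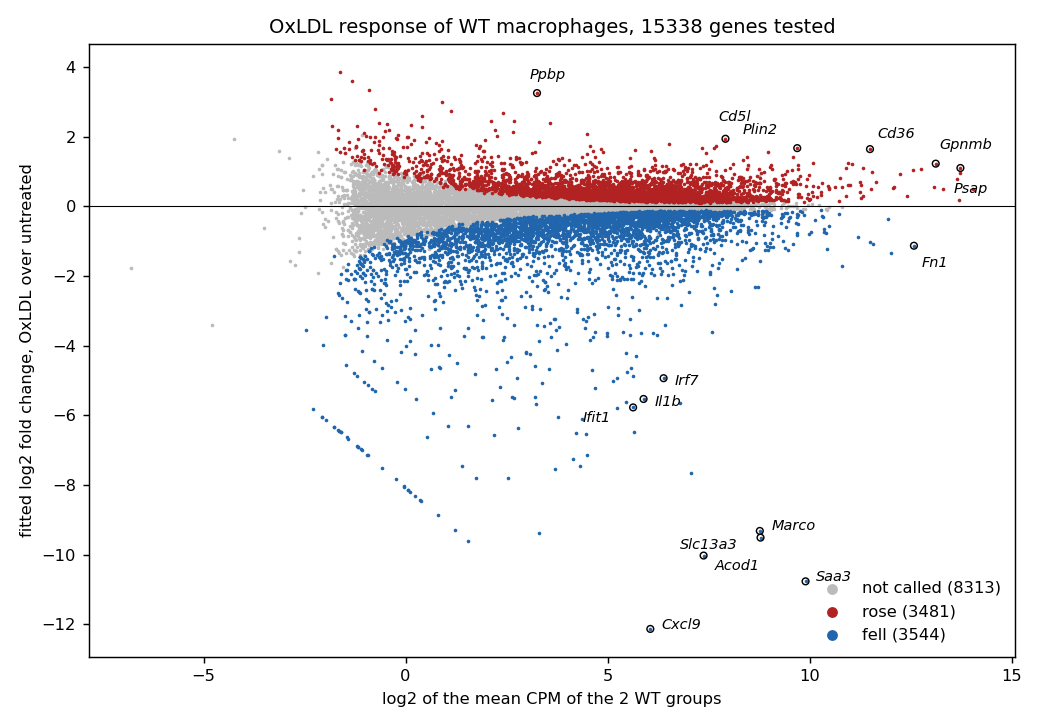
Fitted log2 fold change with OxLDL in WT macrophages (vertical axis) against the log2 mean CPM of both WT groups (horizontal axis), 1 point per gene tested. Red points are the 3481 genes that rose and blue points the 3544 that fell at an edgeR adjusted p under 0.05, grey points the 8313 not called. The falls reach below a log2 fold change of -12 (Cxcl9), while the named rises lie under 4.

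The 10 largest falls by the naming rule included acute-phase, chemokine and interferon-inducible genes. Saa3, an acute-phase serum amyloid made by activated macrophages, had 1944, 1800 and 1987 CPM in the 3 untreated libraries and 1.07, 1.02 and 1.18 CPM in the 3 OxLDL libraries, a log2 fold change of -10.77 ± 0.15 (SE) (edgeR adjusted p = 5.2e-22). Acod1, which makes itaconate from the mitochondrial intermediate aconitate, had 334, 334 and 328 CPM untreated and 0.188, 0.408 and 0.348 CPM with OxLDL (log2 fold change -10.03 ± 0.10, edgeR adjusted p = 2.01e-24). Neither gene came near its untreated level in any OxLDL library, though the naming rule admits only genes without overlap between the groups. Marco, a scavenger receptor for bacteria and particles that activated macrophages express, had 899.7, 824 and 919.9 CPM and then 0.815, 1.5 and 1.32 CPM. Slc13a3, a dicarboxylate transporter, had 866, 851 and 894 CPM and then 1.13, 1.7 and 1.25 CPM, and Ccl5, a chemokine for T cells and monocytes, 270.4, 257 and 268 CPM and then 1.19, 1.91 and 0.834 CPM. Their log2 fold changes were -9.51 ± 0.15, -9.32 ± 0.099 and -7.65 ± 0.13, and their edgeR adjusted p-values 2.49e-21, 2.01e-24 and 1.01e-20. Ifi206, an interferon-inducible gene of the Ifi200 family, went from 24.7, 29.2 and 24.2 CPM to 0.188, 0.204 and 0 CPM. The other 4 had 1 or 2 reads in all 3 OxLDL libraries together. Cxcl9, the interferon-induced chemokine, had 132, 137 and 131 CPM untreated and 1 read with OxLDL, a ratio of 6002 (95% counting interval 1077 to 237050). Ifi213 had 20.8, 18.4 and 19.5 CPM and 1 read (ratio 881, interval 158 to 34787), Cfb, complement factor B, 6.84, 7.6 and 5.42 CPM and 1 read (ratio 298, interval 53.6 to 11786), and Ly6i, a Ly6 family surface protein, 11.9, 10.4 and 12.5 CPM and 2 reads (ratio 261, interval 72.3 to 2156). These intervals cover counting error only.

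Interferon-stimulated genes fell without exception: all 36 list members tested fell, 34 of them at least 2-fold, with log2 fold changes from -6.47 to -0.60 and a median of -3.63 against 0.01 over all genes tested. The libraries of the 2 groups did not overlap for any of the 36. Ifit1, which binds viral RNA lacking a self cap, had 95.9, 98.1 and 98.2 CPM untreated and 2.19, 1.63 and 1.46 CPM with OxLDL (log2 fold change -5.77 ± 0.10, edgeR adjusted p = 1.01e-20). Irf7, the transcription factor that amplifies type I interferon, had 161, 156 and 169 CPM and then 6.33, 4.7 and 4.8 CPM (-4.93 ± 0.086 on the log2 scale, edgeR adjusted p = 1.01e-20). Both genes were lower in every OxLDL library than in any untreated one, as was Oasl2, a 2'-5' oligoadenylate synthetase-like protein, with 159.6, 152 and 155 CPM and then 15.2, 14.3 and 14.3 CPM. Among the transducers and regulators of interferon signalling Stat2 had a log2 fold change of -2.11, Irf9 -0.89 and Irf1 -0.6, while Ifit3 had -6.47, Ifi44 -6.11, Mx1 -5.79, Usp18 -5.2 and Isg15 -4.74.

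Promoters of 3 genes that fell by more than 16-fold are shown because each holds the interferon-stimulated response element, the sequence bound by the interferon-activated complex that holds STAT2 and IRF9 and by other interferon regulatory factors. The 250 bases before the annotated start are from RefSeq (GRCm38.p6), 5′ to 3′ on the gene's strand, with the matches to TTCNNTTTC on either strand in capitals. In Cxcl9 (chr5:92328080-92328329, minus strand) 1 match starts 175 bases before the start. In Ifit1 (chr19:34640639-34640888, plus strand) 3 matches start 109, 103 and 84 bases before it, and the first 2 overlap. In Isg15 (chr4:156200819-156201068, minus strand) 3 overlapping matches start 78, 72 and 66 bases before it.
Cxcl9: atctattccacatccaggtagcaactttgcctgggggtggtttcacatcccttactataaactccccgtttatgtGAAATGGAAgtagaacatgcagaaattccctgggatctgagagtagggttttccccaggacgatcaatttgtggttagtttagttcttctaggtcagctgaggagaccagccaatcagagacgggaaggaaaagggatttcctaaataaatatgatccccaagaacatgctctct
Ifit1: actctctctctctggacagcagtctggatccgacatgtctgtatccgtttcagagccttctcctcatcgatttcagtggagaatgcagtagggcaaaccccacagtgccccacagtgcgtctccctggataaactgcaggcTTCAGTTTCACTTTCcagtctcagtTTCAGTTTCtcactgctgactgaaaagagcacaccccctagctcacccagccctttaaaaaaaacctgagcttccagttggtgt
Isg15: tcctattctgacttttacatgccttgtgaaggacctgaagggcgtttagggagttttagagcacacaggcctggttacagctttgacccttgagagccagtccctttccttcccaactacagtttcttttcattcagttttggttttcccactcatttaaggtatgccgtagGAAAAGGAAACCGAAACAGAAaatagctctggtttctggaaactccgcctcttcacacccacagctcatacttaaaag
Of 10862 tested genes with a promoter in the table (300 bases, 250 before the start and 50 after), 8.88% held this motif. Of the 83 such genes that fell at least 16-fold, 24 (28.9%) held it, and of 27 promoters of listed interferon-stimulated genes, 17 (63%), Ifit1, Ifit3, Oas3, Rsad2 and Gbp2 among them. The list was chosen as interferon-stimulated genes, whose activators bind this element, so its high share followed in part from that choice. A match is a run of letters in this window and not evidence of binding.

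Cytokines and chemokines fell together as well. The list also holds other inflammatory genes, such as the sensor Nlrp3 and the cyclooxygenase Ptgs2. Of its 32 members tested, 28 fell, 1 rose and 3 were not called, with a median log2 fold change of -2.75. The median was the same with the 2 members that had no OxLDL read, Il12b and Ccl12, set at their bounds. Il1b, the precursor of interleukin-1 beta, had 119, 112 and 117 CPM untreated and 2.76, 2.45 and 2.29 CPM with OxLDL, a log2 fold change of -5.53 ± 0.10 (edgeR adjusted p = 3.32e-20). Tnf, tumour necrosis factor, had 83.5, 86.2 and 87.2 CPM and then 8.46, 7.76 and 11.3 CPM (-3.23 ± 0.091, edgeR adjusted p = 2.63e-17). No OxLDL library came near the untreated level of either gene. Cxcl10, the companion of Cxcl9 at the receptor CXCR3, had 34.6, 35 and 35 CPM and then 0.313, 0.204 and 0.139 CPM. Nos2, the inducible nitric oxide synthase, had 26.9, 26.4 and 23.6 CPM and then 2.44, 1.97 and 2.57 CPM (-3.45 ± 0.15), and Ccl2, the chemokine that recruits CCR2+ monocytes, 46.3, 43.9 and 43.8 CPM and then 16.4, 14.1 and 18.1 CPM (-1.46 ± 0.089). The neutrophil-attracting chemokines Cxcl1, Cxcl2 and Cxcl3 had log2 fold changes of -2.87, -5.55 and -5.26, and the cytokines Il6, Il10 and Il1a -3.24, -3.76 and -2.6. Il12b, a subunit of interleukin-12, had 1.9 to 3.54 CPM untreated and no read in any OxLDL library. Ccl6, a constitutive chemokine of the macrophage lineage, was the member that rose (0.97). Nlrp3, the inflammasome sensor, had 33.4, 32.6 and 31.7 CPM untreated and 32.5, 32.4 and 32.1 CPM with OxLDL and was not called, like Il18 and Osm.

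Of the 22 NF-kB subunits, feedback inhibitors and direct targets, 18 fell, 1 rose and 3 were not called (median -1.12). The feedback inhibitors spanned a wide range, from Tnip3 (-2.88), Nfkbiz (-2.84) and Nfkbia, the classical inhibitor (-1.83), to Tnfaip3, the ubiquitin editor A20 (-0.24). Nfkbiz, an atypical inhibitor that also activates secondary response genes, had 196, 202 and 196 CPM untreated and 29.7, 29.5 and 23.8 CPM with OxLDL (-2.84 ± 0.07, edgeR adjusted p = 2.85e-18), and Tnip3, an inhibitor that works with A20, 55.9, 60.2 and 55.1 CPM and then 7.64, 7.55 and 8 CPM. Sod2, the mitochondrial superoxide dismutase and an NF-kB target, had 369.6, 349 and 356 CPM and then 61.2, 61.6 and 61.7 CPM (-2.54 ± 0.053). None of these libraries overlapped between the groups. Among the subunits Rela was not called (113, 117 and 118 CPM and 117, 114 and 125 CPM), like the inhibitors Nfkbib and Nfkbie, and Nfkb1, Nfkb2, Rel and Relb had log2 fold changes of -0.41, -0.53, -0.46 and -0.52. The motif GGGANTTTC was held by 2 of 18 promoters of this list (Nfkb2 and Nfkbia) and by 1.22% of all promoters. In the cytokine list 5 of 21 promoters held it (Il6, Cxcl1, Cxcl2, Cxcl3 and Cxcl9). Both lists hold genes known as NF-kB targets, so higher shares followed in part from the choice of lists.

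MHC class I genes fell in 14 of 15 cases (median -0.65). Tap1, a subunit of the peptide transporter, had 109, 110.03 and 108 CPM untreated and 41, 39.5 and 45.3 CPM with OxLDL (-1.38 ± 0.059, edgeR adjusted p = 3e-14). H2-K1, a heavy chain, had 1037, 1021 and 1050 CPM and then 602, 603 and 614 CPM, and B2m, the light chain, 1726, 1728 and 1671 CPM and then 1074, 1020 and 932 CPM, with log2 fold changes of -0.77 ± 0.047 and -0.76 ± 0.05. The immunoproteasome subunits Psmb8, Psmb9 and Psmb10 fell with them (-0.91, -0.65 and -0.57). H2-D1 was the member that rose (0.29). H2 heavy chains share near-identical sequence, so reads may have been split between H2-K1 and H2-D1, and their values are uncertain. Complement genes split: C3, the central component, had 349, 355 and 355 CPM and then 29.6, 29.6 and 27.7 CPM (-3.61 ± 0.068, edgeR adjusted p = 3.32e-20), while C1qb and C1qc rose by less (0.33 and 0.36) and Cfp, properdin, was not called.

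**Figure D2:**
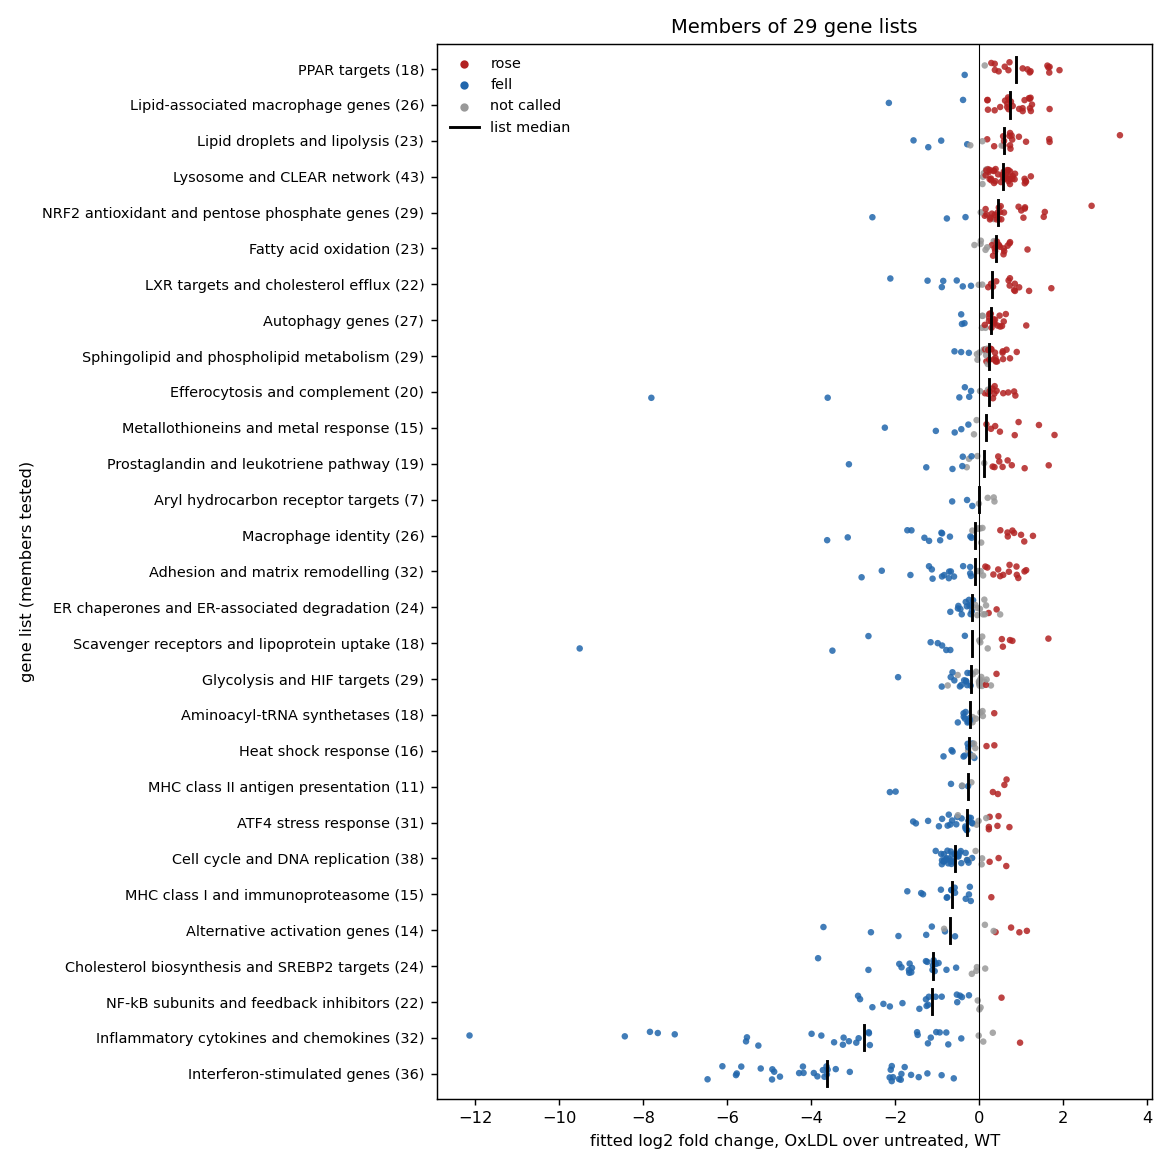
Fitted log2 fold change with OxLDL in WT macrophages (horizontal axis) of every tested member of 29 gene lists (vertical axis, number of members tested in brackets), ordered by the list median, which is drawn as a black bar. Red points rose, blue points fell and grey points were not called. Interferon-stimulated genes lie lowest (median -3.63) and PPAR targets highest (0.88), and the lists with low medians spread farther from 0 than those with high ones.

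On the lipid side, uptake receptors moved both ways. Of 18 scavenger and lipoprotein receptors tested, 5 rose, 9 fell and 4 were not called (median -0.17, and 0.03 without OxLDL replicate 1). Cd36, the receptor for oxidised phospholipids and long-chain fatty acids, had 1400, 1424 and 1364 CPM untreated and 4633, 4442 and 4054 CPM with OxLDL, a rise of 1.65 ± 0.047 on the log2 scale (edgeR adjusted p = 3.52e-17). Msr1, the class A scavenger receptor, had 447, 444 and 432 CPM and then 479, 478 and 435 CPM and was not called (0.07 ± 0.046, edgeR adjusted p = 0.209), except when OxLDL replicate 3 was left out (0.12, adjusted p = 0.0426). Cd36 thus stood above its untreated range in each OxLDL library, and Msr1 overlapped it. Lrp1, an endocytic receptor for apolipoprotein E-rich particles, named after its values were seen, rose (0.54 ± 0.078), as did the macrosialin Cd68 (0.79). Olr1, the lectin-like receptor for OxLDL, was low throughout and fell, from 5.55, 5.54 and 4.94 CPM to 0.188, 0.613 and 0.626 CPM.

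PPAR targets rose in 16 of 18 cases (median 0.88, the highest of the 29 lists). Plin2, the coat protein of macrophage lipid droplets, had 392, 403 and 389 CPM untreated and 1298, 1253 and 1235 CPM with OxLDL (1.68 ± 0.041, edgeR adjusted p = 2.67e-18). Lpl, lipoprotein lipase, had 4107, 3944 and 3890 CPM and then 8322, 8252 and 7911 CPM (1.04 ± 0.032, edgeR adjusted p = 1.31e-16). Angptl4, a secreted inhibitor of that lipase, had 24.7, 24 and 26.8 CPM and then 74.6, 73.4 and 85 CPM (1.62 ± 0.074). In all 3 genes the OxLDL libraries stood well above the untreated ones. The fatty acid-binding protein Fabp4 went from 75.6, 67 and 67.7 CPM to 173, 163 and 155 CPM, and its relative Fabp5 had a log2 fold change of 1.2. Pparg, the receptor itself, rose little, from 32.8, 31.4 and 31 CPM to 43.5, 37.6 and 42.3 CPM (0.37 ± 0.071, edgeR adjusted p = 0.00017), Ppard was not called (0.13 ± 0.058, adjusted p = 0.0678), and Pdk4, a brake on pyruvate oxidation, was the member that fell (-0.35).

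Of 23 lipid droplet and lipolysis genes, 16 rose and 4 fell (median 0.59). Plin2, Mgll and Hilpda are also in the PPAR list, so the counts of these lists are not separate observations. Those that rose include enzymes that break down stored lipid. Mgll, which hydrolyses monoacylglycerol, had 78.3, 73.7 and 80.7 CPM untreated and 237, 245 and 258 CPM with OxLDL (1.67 ± 0.053, edgeR adjusted p = 1.76e-16). Lipa, the lysosomal acid lipase that hydrolyses lipoprotein cholesteryl esters, had 1220, 1221 and 1177 CPM and then 2686, 2648 and 2508 CPM (1.12 ± 0.043, edgeR adjusted p = 5.4e-15). Pnpla2, the adipose triglyceride lipase, rose too (0.95), as did Soat1, which re-esterifies cholesterol for storage (0.77), and Nceh1, which hydrolyses the stored esters (0.79). Members that fell were Dgat2, which makes triacylglycerol (-1.56), the acyl-CoA synthetases Acsl1 (-1.21) and Acsl3 (-0.9), and Lipe, the hormone-sensitive lipase (-0.29). Lpin2, a phosphatidate phosphatase, was not called.

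LXR targets moved both ways. Of 22 tested, 13 rose, 7 fell and 2 were not called (median 0.31). Abca1, the exporter to apolipoprotein A-I, had 559, 578 and 563 CPM untreated and 909, 947 and 906 CPM with OxLDL (0.7 ± 0.066, edgeR adjusted p = 1.42e-08). Abcg1, the exporter to HDL, had 266, 269.9 and 256 CPM and then 474, 466 and 490.4 CPM (0.85 ± 0.046, edgeR adjusted p = 1.42e-12). Apoe, apolipoprotein E, had 9006, 8761 and 9693 CPM and then 17348, 16770 and 19002 CPM (0.95 ± 0.073, edgeR adjusted p = 5.07e-10). All 3 were higher in each OxLDL library than in any untreated one. Mylip, a ubiquitin ligase that acts on lipoprotein receptors, had 69, 67.5 and 68.9 CPM and then 161, 150.5 and 156 CPM (1.19 ± 0.053), and Apoc1, Npc1, Mertk and Arl4c rose as well (1.72, 0.73, 0.83 and 0.85). The members that fell included Srebf1, a transcription factor that drives fatty acid synthesis genes, -0.39 ± 0.052, Fasn, fatty acid synthase, -1.23, Scd1, the stearoyl-CoA desaturase, -0.89 ± 0.069, Scd2 -0.86, Acly, which makes cytosolic acetyl-CoA, -0.19, and Fads2, a fatty acid desaturase, from 18.3, 16.3 and 16.6 CPM to 3.57, 4.22 and 4.03 CPM (-2.12 ± 0.11). Nr1h3, which encodes LXR alpha, fell from 76.5, 77.9 and 71.1 CPM to 50.8, 49.4 and 55.5 CPM, and the fatty acid desaturase Fads1 and the elongase Elovl5 were not called (-0.01 and 0.07).

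Cholesterol synthesis genes fell. Of 24 SREBP2 targets and enzymes tested, 20 fell, 17 of them at least 2-fold, and 0 rose (median -1.11). Cyp51, the lanosterol demethylase, had 65.5, 63.6 and 64.3 CPM untreated and 20.9, 18.8 and 21.6 CPM with OxLDL (-1.66 ± 0.064, edgeR adjusted p = 5.39e-15). Every OxLDL library lay below every untreated one. Other enzymes of the pathway had log2 fold changes of -1.85 (Idi1), -1.62 (Fdps), -1.9 (Fdft1) and -1.6 (Sqle, squalene epoxidase), Insig1, which retains the SREBP complex in the endoplasmic reticulum, -1.67, and Srebf2 itself -1.11. Dhcr7 (51.7, 51.5 and 54.1 CPM and 49.4, 53.1 and 47.6 CPM), Pmvk, Tm7sf2 and Ebp were not called. The sterol regulatory element TCACCCCAC was held by 1 of 17 promoters of the list (Hmgcs1) and by 0.635% of all promoters.

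Of 23 fatty acid oxidation genes, 17 rose and 0 fell (median 0.39). Cpt1a, which loads fatty acids for import into mitochondria, had 102, 102 and 104 CPM untreated and 227, 239.8 and 218 CPM with OxLDL (1.15 ± 0.06, edgeR adjusted p = 7.63e-13). Ucp2, a mitochondrial carrier, had 768, 771 and 779.7 CPM and then 1138, 1144 and 1196 CPM (0.59 ± 0.039), and Acaa2, the last enzyme of the mitochondrial cycle, 27, 27.3 and 31.1 CPM and then 48.7, 46.6 and 46.7 CPM (0.74 ± 0.068). Cpt1a was the only member of the list that rose at least 2-fold. The trifunctional enzyme subunits Hadha and Hadhb rose by 0.47 and 0.58, and the peroxisomal thiolase Acaa1a was not called (169.7, 159 and 155 CPM and 149, 142 and 156 CPM).

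**Figure D3:**
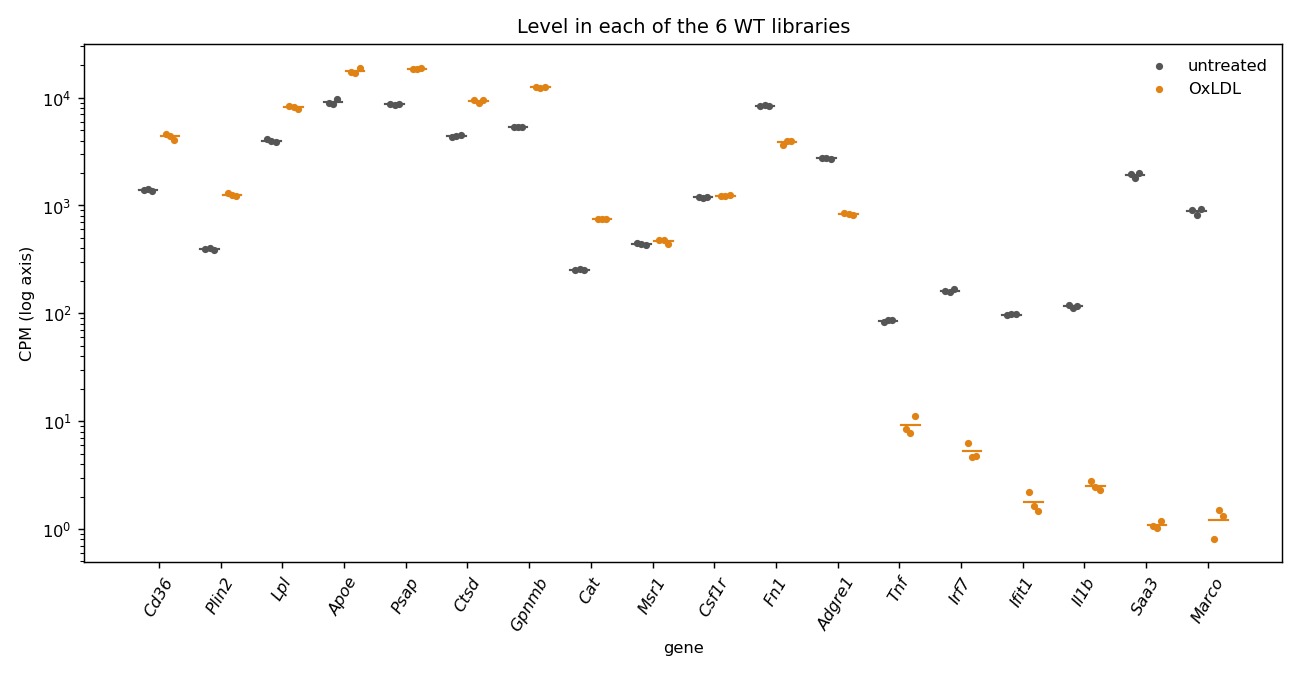
CPM on a log axis (vertical) of 18 genes (horizontal) in each of the 3 untreated (grey) and 3 OxLDL (orange) WT libraries, with the group mean as a short line. Replicates lie close together, Msr1 and Csf1r stay at one level, the OxLDL libraries lie higher for the lipid and lysosome genes from Cd36 to Cat, and Saa3 and Marco drop from 1910 and 881 to 1.09 and 1.21 CPM.

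Lysosomal genes rose. Of 43 genes of the lysosome and its CLEAR network (coordinated lysosomal expression and regulation, driven by TFEB and TFE3), 39 rose and 0 fell, with a median log2 fold change of 0.56 and a range of 0.08 to 1.23. Their summed level was 48505 to 48888 CPM in the untreated libraries and 86597 to 88452 CPM with OxLDL. Psap, the precursor of the saposins that present lipids to lysosomal hydrolases, had 8637, 8587 and 8689 CPM untreated and 18574, 18506 and 18704 CPM with OxLDL (1.11 ± 0.031, edgeR adjusted p = 1.88e-17). Ctsd, the aspartic protease cathepsin D, had 4356, 4440 and 4459 CPM and then 9484, 8982 and 9575 CPM (1.08 ± 0.04, edgeR adjusted p = 2.48e-15). Gpnmb, the gene mutated in the other genotype, had 5374, 5311 and 5306 CPM and then 12552, 12355 and 12615 CPM (1.23 ± 0.038, edgeR adjusted p = 1.25e-16) and the highest log2 fold change of the list. Ctsb, a cysteine cathepsin, rose by less (0.8 ± 0.026). Subunits of the proton pump rose from 0.17 (Atp6v1h) to 1.09 (Atp6v0d2). Of the transcription factors, Tfeb rose (0.73), Mitf rose (0.35), and Tfe3 was not called (139, 143 and 139 CPM and 142, 148 and 155 CPM). Smpd1, the acid sphingomyelinase, was not called either.

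The promoters of Ctsd and Mcoln1 are shown because they hold the CLEAR core TCACGTGA, in capitals, in the 250 bases before the start (RefSeq, GRCm38.p6, gene's strand). The core contains the E-box CACGTG, so any CLEAR match is also an E-box match. In Ctsd (chr7:142387828-142388077, minus strand) it starts 99 bases before the start and in Mcoln1, the lysosomal calcium channel (chr8:3500269-3500518, plus strand, log2 fold change 0.52), 46 bases before it.
Ctsd: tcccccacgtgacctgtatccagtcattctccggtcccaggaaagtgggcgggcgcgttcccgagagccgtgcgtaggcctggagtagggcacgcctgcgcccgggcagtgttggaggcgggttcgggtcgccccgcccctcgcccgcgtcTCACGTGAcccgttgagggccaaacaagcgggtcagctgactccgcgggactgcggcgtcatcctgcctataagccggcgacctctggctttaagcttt
Mcoln1: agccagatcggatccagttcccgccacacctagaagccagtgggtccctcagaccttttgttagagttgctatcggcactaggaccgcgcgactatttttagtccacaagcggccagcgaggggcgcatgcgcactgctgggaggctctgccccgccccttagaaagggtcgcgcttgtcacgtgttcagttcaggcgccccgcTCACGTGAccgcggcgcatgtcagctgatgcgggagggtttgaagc
Of 33 promoters of the list, 7 (21.2%) held the core: Ctsa, Ctsd, Gla, Mcoln1, Atp6v0d1, Atp6v1a and Clcn7. All 7 genes rose, as did 39 of the 43 list members tested. The list was chosen as the CLEAR network, which is defined in part by this element. A share above that of all promoters therefore followed from the choice of list. The share over all 10862 promoters was 2.08%, over genes that rose 2.84% and over genes that fell 1.25%. Over genes that rose at least 2-fold it was 1.38% (3 of 218), and over those that fell at least 2-fold 0.529% (4 of 756).

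Of 27 autophagy genes, 20 rose and 3 fell (median 0.29). Rragd, a GTPase of nutrient sensing at the lysosome, had 18, 16 and 16 CPM untreated and 38.3, 37.2 and 33.1 CPM with OxLDL (1.12 ± 0.081, edgeR adjusted p = 1.86e-10). Gabarapl1, an autophagosome protein, had 96, 93.8 and 88.5 CPM and then 143, 145 and 144 CPM, and Sqstm1, the cargo receptor p62, 469, 455 and 469 CPM and then 552, 559.8 and 577 CPM (0.28 ± 0.046). Fnip2, a folliculin partner, rose by 0.59 ± 0.058. Wipi1, Atg9a and Bnip3 fell (-0.41, -0.35 and -0.43), and Wipi2 was not called.

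Genes of lipid-associated macrophages, the TREM2+ state described in fat tissue and plaques, rose in 24 of 26 cases and fell in 2 (median 0.73). Trem2, the lipid-sensing receptor, had 456, 448 and 469 CPM untreated and 930.2, 908 and 968 CPM with OxLDL (1.03 ± 0.058, edgeR adjusted p = 2.9e-12). Lgals3, galectin-3, had 1196, 1124 and 1177 CPM and then 2714, 2726 and 2918 CPM (1.26 ± 0.077), and Spp1, osteopontin, 8308, 8414 and 8269 CPM and then 12482, 11740 and 11117 CPM (0.5 ± 0.041, edgeR adjusted p = 1.36e-09). Each was higher in all 3 OxLDL libraries. Cst7, cystatin F, fell (-2.15), as did Csf1, the macrophage growth factor (-0.38). The list shares Gpnmb, Ctsb, Ctsd, Ctsl and Cd63 with the lysosome list and Plin2, Lpl, Fabp4 and Fabp5 with the PPAR list, so these counts are not separate observations.

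Antioxidant genes of the NRF2 set rose in 24 of 29 cases and fell in 3 (median 0.44). Cat, catalase, had 253, 257 and 251 CPM untreated and 750.3, 751 and 747 CPM with OxLDL (1.56 ± 0.04, edgeR adjusted p = 6.14e-18). Srxn1, sulfiredoxin, had 158, 149.9 and 158 CPM and then 319.9, 314 and 333 CPM (1.05 ± 0.046, edgeR adjusted p = 4.08e-14), and Gstm1, a glutathione S-transferase, 91.2, 85.4 and 89.8 CPM and then 264, 256 and 254 CPM (1.54 ± 0.049). No untreated library reached the OxLDL level of these genes. Hmox1, haem oxygenase 1, rose by less, from 596, 586 and 609 CPM to 787, 776 and 809 CPM (0.4 ± 0.044, edgeR adjusted p = 1.21e-07). Nqo1, a classical NRF2 target, was low, with 2.8, 3.38 and 2.31 CPM and 3.45, 2.93 and 4.45 CPM, and was not called (edgeR adjusted p = 0.219). Slc7a11, the cystine importer, fell (-0.33 ± 0.074), as did Sod2 and Me1 (-0.77). Sod2 is also a member of the NF-kB list. The glutathione S-transferase Gsta3, with 1.4, 1.32 and 1.56 CPM and then 10.1, 8.58 and 8.76 CPM, was among the 10 highest genes (2.68 ± 0.18). Its promoter (chr1:21240335-21240584, plus strand, RefSeq, GRCm38.p6) is shown because it holds the antioxidant response element core TGACNNNGC, in capitals, 121 bases before the start.
Gsta3: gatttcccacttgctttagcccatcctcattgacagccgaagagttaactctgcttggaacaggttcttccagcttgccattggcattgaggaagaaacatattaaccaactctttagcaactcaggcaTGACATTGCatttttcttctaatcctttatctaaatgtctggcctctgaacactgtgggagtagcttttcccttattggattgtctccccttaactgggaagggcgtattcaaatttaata
This short core is common: 17% of all promoters held it, and 10 of 25 promoters of this list. The list was chosen as the NRF2 antioxidant set, so a share above that of all promoters followed in part from that choice.

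Iron and metal genes moved both ways, 8 up and 5 down of 15 tested (median 0.17). Slc40a1, the iron exporter ferroportin, had 40.8, 41 and 40.7 CPM untreated and 144, 147 and 134 CPM with OxLDL (1.79 ± 0.053, edgeR adjusted p = 5.1e-17). Tfrc, the transferrin receptor for iron uptake, had 187, 197 and 186 CPM and then 535, 521 and 472 CPM (1.42 ± 0.058, edgeR adjusted p = 1.45e-14), so export and import genes rose together. Cp, the ferroxidase ceruloplasmin, had 160.2, 162 and 158 CPM and then 35.4, 35.3 and 30.5 CPM (-2.25 ± 0.072). The ferritin light chain Ftl1 rose by 0.94 and the heavy chain Fth1 by 0.17. Slc39a10, a zinc importer, was not called.

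Macrophage identity genes moved both ways: of 26 tested, 8 rose, 12 fell and 6 were not called (median -0.10). Csf1r had 1207, 1173 and 1201 CPM untreated and 1229, 1222 and 1251 CPM with OxLDL and was not called (0.05 ± 0.037, edgeR adjusted p = 0.305). Adgre1, which encodes the F4/80 antigen, had 2749, 2752 and 2680 CPM and then 848, 836 and 816 CPM (-1.71 ± 0.04, edgeR adjusted p = 1.34e-18). Cd14, the co-receptor for lipopolysaccharide, had 324, 336 and 327 CPM and then 112, 105 and 106 CPM (-1.61 ± 0.055). The 2 lineage markers thus parted: F4/80 mRNA fell in every OxLDL library, while the M-CSF receptor stood just above its untreated range without passing the test. The monocyte genes Cx3cr1, Ccr2 and Ly6c2 fell (-3.13, -0.9 and -3.62), and Cebpa, Irf8 and Timd4 rose (1.07, 0.67 and 1.28). Toll-like receptor 2 fell (-1.3) and Tlr4 was not called (0.02).

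Genes of MHC class II presentation split, 4 up, 5 down and 2 not called of 11. Cd74, the invariant chain, had 149, 139 and 146 CPM untreated and 91.5, 86.8 and 94.4 CPM with OxLDL (-0.67 ± 0.062, edgeR adjusted p = 9.95e-09), Cd40, the co-stimulatory receptor, 9.48, 8.39 and 6.33 CPM and then 1.94, 2.11 and 1.46 CPM, and H2-DMa, which helps load peptides, 28.8, 25 and 24.4 CPM and then 40.6, 36.9 and 41 CPM. The first 2 fell and the third rose, and H2-Ab1, a class II chain, was not called (28.6, 28 and 31.1 CPM and 25.6, 24.2 and 27.3 CPM), except in the fit of the 6 WT libraries alone (-0.19, adjusted p = 0.0365) and by library size alone. Of 14 alternative activation genes tested, 4 rose and 7 fell (median -0.69). Chil3, a chitinase-like protein, fell from 59, 57.4 and 57 CPM to 17, 15.1 and 13.6 CPM, and Egr2, an interleukin-4 target, rose from 72, 70.2 and 77.4 CPM to 143, 145 and 138 CPM (0.96 ± 0.052). Arg1, arginase 1, was near 0 in both groups, with 0.97, 1.11 and 0.805 CPM untreated and 3 reads in all OxLDL libraries, a ratio of 14.4 (95% counting interval 4.94 to 70.01). Retnla had no read in any of the 6 libraries.

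Adhesion and matrix genes moved both ways, 13 up and 16 down of 32 tested. Itgal, the integrin CD11a, had 671, 671 and 661 CPM untreated and 133, 132 and 137 CPM with OxLDL (-2.32 ± 0.053, edgeR adjusted p = 9.65e-19), and Timp3, an inhibitor of matrix proteases, 347, 363 and 355 CPM and then 54.4, 51.2 and 47.3 CPM (-2.8 ± 0.067). Mmp9, a gelatinase, fell from 118, 114 and 123 CPM to 38.8, 39.4 and 35.6 CPM, whereas Mmp12, the macrophage elastase, named after its values were seen, rose from 1623, 1637 and 1606 CPM to 3724, 3549 and 3297 CPM (1.12 ± 0.045). Matrix proteases thus did not share a direction. Itgax, Itgb2 and Itgb3 rose (0.71, 0.57 and 0.72), and Itgb5 and Itgam were not called. Efferocytosis genes rose more often than they fell (12 and 6 of 20, with complement included). Gas6, a bridge between dying cells and the receptors Axl and Mertk, had 295, 296 and 295 CPM and then 526, 521 and 565 CPM (0.86 ± 0.046), and Mfge8, another bridging protein, 2470, 2354 and 2497 CPM and then 3894, 3848 and 4085 CPM (0.69 ± 0.039).

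Eicosanoid genes moved both ways: of 19 tested, 9 rose and 6 fell (median 0.12). Ptgs2, the inducible cyclooxygenase, had 9.16, 9.97 and 9.02 CPM untreated and 1.38, 0.953 and 0.904 CPM with OxLDL (-3.1 ± 0.19, edgeR adjusted p = 1.23e-11). Alox5 and Alox5ap, which start leukotriene synthesis, rose (0.68 and 1.08). Ptger2, a receptor for prostaglandin E2, had 12.1, 14 and 15.4 CPM and then 43.9, 43.4 and 43.4 CPM (1.66 ± 0.084), and Pla2g7, which cleaves oxidised phospholipids, 479.6, 482 and 481 CPM and then 872, 822 and 778 CPM (0.78 ± 0.049). Of 29 sphingolipid and phospholipid genes, 18 rose and 3 fell (median 0.24), among them Pld3, a lysosomal exonuclease of the phospholipase D family (0.89 ± 0.041), Abhd12, a lysophospholipid lipase (0.65 ± 0.047), and Sgms2, a sphingomyelin synthase (0.73 ± 0.056).

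Amino acid stress genes were lower with OxLDL. Of 31 ATF4 response genes tested, 21 fell and 6 rose (median -0.30), and by library size alone 3 rose. Slc7a5, a transporter for large neutral amino acids, had 92, 90.8 and 97.4 CPM untreated and 30.3, 32.3 and 31.8 CPM with OxLDL (-1.57 ± 0.057, edgeR adjusted p = 1.91e-15), and Aldh1l2, a mitochondrial folate enzyme, 39.2, 38.4 and 41.6 CPM and then 12.9, 15.4 and 13.7 CPM (-1.51 ± 0.092). Atf3, a stress-induced factor of the same family, rose from 257, 251 and 256 CPM to 419, 415 and 424 CPM (0.72 ± 0.046). Atf4 itself had 194, 185 and 199 CPM and then 172, 173 and 174 CPM, a change of -0.15 ± 0.05 (edgeR adjusted p = 0.0155) that was not called without untreated replicate 3 (-0.13, adjusted p = 0.0793). Gdf15, a stress hormone, was called at 0.25 ± 0.081 (edgeR adjusted p = 0.0163) but not without untreated replicate 1 (0.22, adjusted p = 0.0644), without untreated replicate 2 (0.23, adjusted p = 0.0558) or by library size alone. Cebpb was not called.

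Aminoacyl-tRNA synthetases, which charge tRNAs and are known ATF4-responsive genes in part, had 11 of 18 members lower and 1 higher (median -0.23). Aars had 231, 229 and 233 CPM untreated and 154, 164 and 169.6 CPM with OxLDL (-0.51 ± 0.049, edgeR adjusted p = 2.3e-08) and Gars 140.3, 136 and 132 CPM and then 110.03, 103 and 103 CPM (-0.37 ± 0.05), both without overlap, and Qars rose (0.36 ± 0.051). Nars was not called. The 250 bases before the start of Aars (chr8:111033592-111033841, plus strand, RefSeq, GRCm38.p6) are shown because both spellings of the C/EBP-ATF response element searched, TGATGNAAT and TTGCATCA on either strand, match there in overlapping positions, 113 and 112 bases before the start.
Aars: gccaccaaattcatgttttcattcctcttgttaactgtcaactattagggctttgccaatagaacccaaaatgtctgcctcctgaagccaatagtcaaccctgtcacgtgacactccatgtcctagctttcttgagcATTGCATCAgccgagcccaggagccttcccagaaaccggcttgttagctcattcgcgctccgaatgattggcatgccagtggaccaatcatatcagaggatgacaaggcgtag
The element was held by 5 of 10 synthetase promoters (Aars, Gars, Iars, Tars and Yars, all of which fell), by 5 of 28 promoters of the ATF4 list and by 1.22% of all promoters. Both lists hold genes known to respond to ATF4, so shares above that of all promoters followed in part from the choice of lists.

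Chaperones were lower by small amounts. In the endoplasmic reticulum 13 of 24 genes fell and 2 rose (median -0.16), with Herpud1, an ER-associated degradation protein, at -0.69 ± 0.054, Hspa5, the chaperone BiP, at -0.51 ± 0.046 and Pdia6, a disulfide isomerase, at -0.45 ± 0.052; Canx was not called. Of 16 heat shock genes 10 fell and 2 rose (median -0.24), among them Hspa1b (-0.85 ± 0.094), Hsp90aa1 (-0.37 ± 0.051) and Hspa8 (-0.26 ± 0.039), with Hspe1 not called. Of 29 glycolysis genes and HIF targets, 14 fell and 2 rose (median -0.20). Ndrg1, a hypoxia-responsive gene, had 154, 154 and 163 CPM untreated and 44, 40.7 and 38.7 CPM with OxLDL (-1.93 ± 0.061, edgeR adjusted p = 2.03e-16), Pfkfb3, which makes the activator of phosphofructokinase, 197, 194 and 196 CPM and then 106, 101 and 109.9 CPM (-0.89 ± 0.056), and Hif1a 259, 275 and 250.3 CPM and then 178, 167 and 160.2 CPM (-0.64 ± 0.055). Pkm, pyruvate kinase, was not called (1808, 1785 and 1801 CPM and 1774, 1765 and 1832 CPM). Of 7 aryl hydrocarbon receptor genes tested, 3 fell and 0 rose: Ahr (-0.64 ± 0.088), Cyp1b1 (-0.16 ± 0.049) and Tiparp (-0.29 ± 0.091). The calls of Cyp1b1 and Tiparp were lost without OxLDL replicate 3 (-0.12 and -0.18, adjusted p = 0.0656 and 0.104) and without untreated replicate 2 (-0.15 and -0.24, adjusted p = 0.0527 and 0.0717), and Arnt was not called.

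Of 38 cell cycle genes, 30 fell and 3 rose (median -0.57), and 1 of the falls was at least 2-fold. Mki67, the proliferation marker, had 80.7, 88.9 and 83.6 CPM untreated and 44.6, 46.9 and 45.3 CPM with OxLDL (-0.89 ± 0.082, edgeR adjusted p = 1.04e-08). Top2a, topoisomerase 2-alpha, had 69.5, 69.9 and 66.3 CPM and then 39.4, 42.5 and 38.1 CPM, Mcm5, a subunit of the replicative helicase, 32.5, 32.6 and 36.1 CPM and then 17.6, 16.5 and 15.2 CPM, and Ccnd2, cyclin D2, 237, 229 and 225 CPM and then 143, 144 and 150.3 CPM. Proliferation genes were thus lower but present in every OxLDL library. Pcna, E2f2 and the inhibitor Cdkn1b rose (0.46, 0.65 and 0.25), and Cdkn1a was not called.

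All 12 mitochondrially encoded mRNAs tested rose (median 0.68). mt-Cytb, cytochrome b, had 1273, 1252 and 1225 CPM untreated and 2348, 2268 and 1986 CPM with OxLDL (0.82 ± 0.05, edgeR adjusted p = 1.36e-11), mt-Nd4, a complex I subunit, 699.5, 687 and 648 CPM and then 1107, 1093 and 977 CPM, and mt-Nd2, another, 525, 527 and 508 CPM and then 837, 829.9 and 724 CPM. The 13 mitochondrial mRNAs listed together made up 12381 to 12985 CPM in untreated and 17535 to 20276 CPM in OxLDL libraries. All 3 OxLDL libraries lay above all 3 untreated ones, and the part of this shift in other results was not tested.

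The cultures also carried mRNAs of other cells, and several of these marker lists differed between the groups. Fibroblast and stromal markers had a summed level of 17719 to 17957 CPM in the untreated and 8386 to 9137 CPM in the OxLDL libraries, and 10 of 15 fell (median -0.97). Col1a1, a collagen I chain, had 5997, 5911 and 5993 CPM untreated and 2182, 2346 and 2567 CPM with OxLDL (-1.34 ± 0.046, edgeR adjusted p = 6.48e-16), Sparc, a matrix glycoprotein, 1982, 1917 and 1936 CPM and then 829, 832 and 825 CPM, and Postn, periostin, 328, 339.7 and 328 CPM and then 65.4, 66.4 and 66 CPM. Cxcl12, a stromal chemokine, had 771, 758 and 771 CPM and then 769, 785 and 757 CPM and was not called, like Dcn, Lum, Pdgfra and Tagln; by library size alone Cxcl12 was called lower (-0.11). The stromal mRNAs thus did not fall in equal proportion. In bulk libraries fewer cells of a type and less RNA per cell cannot be told apart. The same holds for Fn1 and Timp3, which stromal cells also express, and the part of stromal RNA in the falls of the adhesion and matrix list was not tested. Fn1, fibronectin, named after its values were seen, had 8364, 8578 and 8313 CPM and then 3616, 3969 and 3978 CPM (-1.13 ± 0.077).

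**Figure D4:**
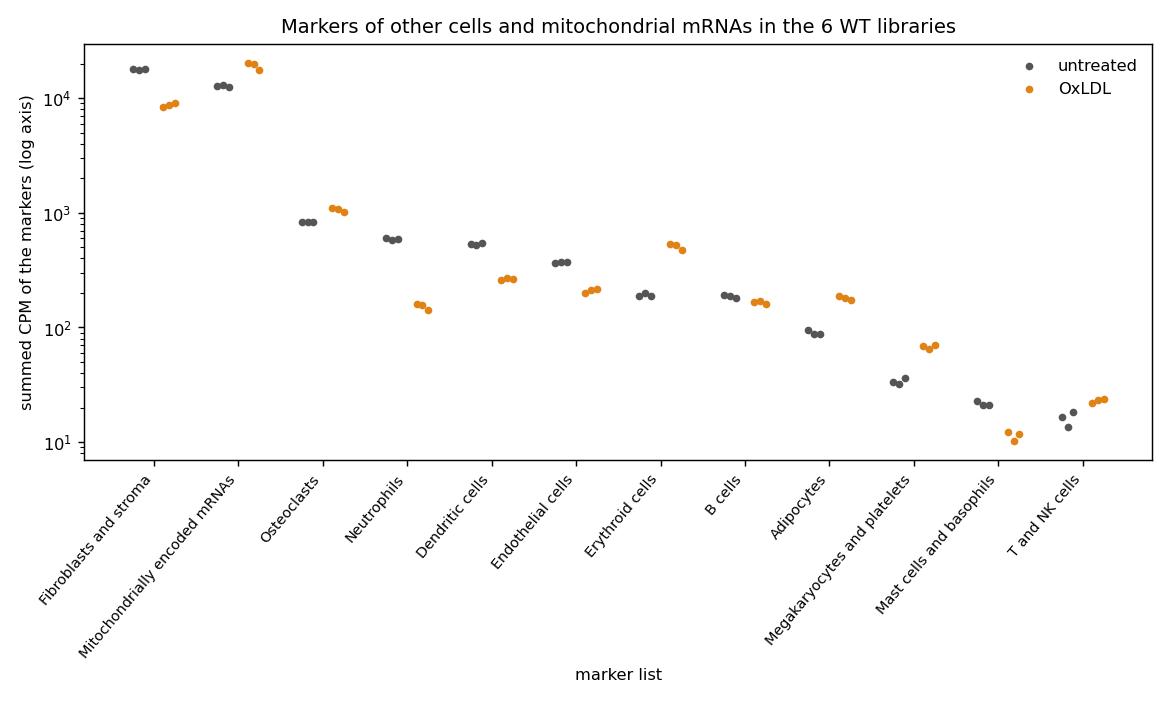
Summed CPM on a log axis (vertical) of the markers of other cell types and of the mitochondrially encoded mRNAs (horizontal) in the 3 untreated (grey) and 3 OxLDL (orange) WT libraries. Stromal markers drop from 17719 to 17957 CPM to 8386 to 9137 CPM, and neutrophil markers from 577 to 608 CPM to 141 to 161 CPM.

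Neutrophil markers summed to 577 to 608 CPM untreated and 141 to 161 CPM with OxLDL, and 7 of 13 tested fell while 2 rose. Lcn2, lipocalin-2, which activated macrophages also make, fell from 145, 138 and 135 CPM to 11, 10.5 and 11 CPM (-3.69 ± 0.069), and Ngp and S100a9, neutrophil granule and cytosolic proteins, fell from 127, 119 and 121 CPM to 37, 35.8 and 34.7 CPM and from 130.04, 129 and 121 CPM to 34.2, 36.1 and 27.7 CPM, while Prtn3, a primary granule protease, was not called at 2.86, 2.69 and 2.63 CPM and 2.51, 1.97 and 4.17 CPM. Endothelial markers summed to 365 to 373 CPM and then 201 to 218 CPM (7 of 8 fell, 1 rose), with Cdh5 at -1.01 ± 0.052, Pecam1 at -1.03 ± 0.059 and Kdr at -1.15 ± 0.076. Adipocyte markers summed to 87.1 to 94.6 CPM and then 175 to 189 CPM, most of it Fabp4, which macrophages express, and 3 of 5 tested rose. The defining adipocyte genes were near 0 although called higher, with Adipoq at 0.593, 0.369 and 0.483 CPM and then 1.25, 2.31 and 1.18 CPM, Plin1 at 0.0539, 0.158 and 0.0537 CPM and then 0.94, 1.09 and 0.904 CPM, and Lep had no read in any library. Megakaryocyte and platelet markers rose in 6 of 8 cases, summing to 32.4 to 36 CPM and then 64.7 to 70 CPM. Ppbp, the platelet basic protein, had 1.78, 2 and 1.61 CPM untreated and 17.5, 15.6 and 18.7 CPM with OxLDL (3.26 ± 0.14, edgeR adjusted p = 3.66e-14), the highest log2 fold change under the naming rule, Itga2b, the integrin CD41, 4.58, 5.22 and 4.19 CPM and then 14.7, 12.2 and 14.3 CPM, and Gp5 0.916, 0.211 and 0.537 CPM and then 3.82, 3.95 and 3.55 CPM, while Pf4, platelet factor 4, was not called at 22.5, 22.5 and 26.2 CPM and 25.6, 25.9 and 23.6 CPM.

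Markers of the remaining cell types were low or mixed. T and NK cell markers summed to 13.5 to 18.3 CPM and then 22 to 23.6 CPM, with Cd8a, Cd8b1 and Gzma at 0 in all 6 libraries and Cd4 as the only member that rose (12.9, 11.1 and 12.8 CPM and then 19.8, 20.1 and 20.2 CPM). B cell markers summed to 182 to 191 CPM and then 160 to 170 CPM, and 5 of 7 fell, among them Jchain, Ebf1, Blnk and Cd79b (-0.84, -0.32, -0.15 and -0.62). The call of Blnk was lost without OxLDL replicate 3, untreated replicate 1 or untreated replicate 3 (edgeR adjusted p = 0.089, 0.067 and 0.064). Leaving out 1 library gave 1 to 4 falls: 1 without untreated replicate 1, 2 without OxLDL replicate 3, 3 without OxLDL replicate 1, OxLDL replicate 2 or untreated replicate 2, and 4 without untreated replicate 3. Dendritic cell markers summed to 519 to 542 CPM and then 260 to 269 CPM, and 4 of 8 fell. Bst2, also an interferon-stimulated gene, fell from 235, 228 and 238 CPM to 61, 64.5 and 66.9 CPM, while Flt3, Siglech and Ccr7 stayed at or under 0.316 CPM. The osteoclast list summed to 826 to 831 CPM and then 1007 to 1093 CPM and had 3 members up and 4 down of 8, with Acp5, the tartrate-resistant phosphatase, at 96, 90.2 and 91.1 CPM and then 23.9, 24 and 23 CPM and Atp6v0d2 at 349, 351 and 340.1 CPM and then 766, 756 and 687 CPM, while Dcstamp, the fusion receptor, was not called; the 3 rises became 1 without OxLDL replicate 1, without untreated replicate 1 and by library size alone. The 2 erythroid genes tested rose, Tfrc and Epor (1.19 ± 0.22), and the list summed to 188 to 199.9 CPM and then 476 to 538 CPM, most of it Tfrc, with Hba-a2 at 0. The 3 mast cell genes tested fell, Kit, Hdc and Gata2 (-0.86, -1.94 and -1.18), and the list summed to 20.9 to 23 CPM and then 10.3 to 12.3 CPM, most of it Kit, with Tpsb2 at 0. The Y-linked genes Ddx3y and Eif2s3y were present in every WT library (83.6 to 100.4 CPM and 46.3 to 62.2 CPM). Xist, expressed from the inactive X of females, had 2.75, 1.74 and 0.59 CPM in the untreated libraries and 2 reads in all OxLDL libraries together (ratio 38.1, 95% counting interval 10.5 to 315). Ddx3y was not called and Eif2s3y rose by 0.27 ± 0.066.

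The 10 largest rises by the naming rule include secreted and endolysosomal proteins. Cd5l, a secreted macrophage scavenger protein under LXR control, had 98.1, 97.7 and 103 CPM untreated and 379, 380.3 and 393 CPM with OxLDL (1.95 ± 0.051, edgeR adjusted p = 8.07e-18). Mcoln3, an endolysosomal cation channel, had 8.89, 8.23 and 8.37 CPM and then 34.3, 35.5 and 38.7 CPM (2.09 ± 0.094), and Agt, angiotensinogen, 3.93, 3.59 and 4.03 CPM and then 20.8, 17.4 and 22.2 CPM (2.39 ± 0.13). The naming rule admits only genes whose libraries do not overlap between the groups, so the separation of all 10 followed from that rule. Itgad, the integrin CD11d of splenic and lipid-laden macrophages, had 1.4, 3.22 and 1.34 CPM and then 12, 10.8 and 10.01 CPM, and Ear2, an eosinophil-associated ribonuclease, 1.08, 1.27 and 1.66 CPM and then 6.64, 9.66 and 5.84 CPM. Ccdc148 (2.21 ± 0.18), Acot1, an acyl-CoA thioesterase (1.91 ± 0.21), and Tst, the sulfurtransferase rhodanese (1.85 ± 0.16), complete the 10 highest with Ppbp and Gsta3. Ear2, Gsta3, Gstm1, Acot1, Ly6i, Ifi206 and Ifi213 have close paralogs with which reads may be shared, so their values are uncertain.

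Most genes called in WT were not called different in R150X macrophages. The difference of the responses, R150X minus WT, was tested in the same fit and passed for 1276 of 15338 genes (8.32%). Of the 7025 genes called in WT, 1089 (15.5%) also passed the test of the difference. For 913 of these the response in R150X was smaller or reversed, and for 176 it was larger. These genes were picked by their WT calls, and the WT libraries also enter the difference. That choice favours smaller responses in R150X, and its part in these counts was not tested. Of the 913, 526 had risen and 387 had fallen in WT, and of the 176, 23 had risen and 153 had fallen. In R150X, 100 of the 1089 were called in the opposite direction. A further 187 genes passed the test of the difference without being called in WT.

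The rises of lipid and lysosome genes were larger in WT in several cases. Cd36 had a log2 fold change of 1.65 in WT and 0.99 in R150X (difference -0.66 ± 0.065, edgeR adjusted p = 1.58e-06), Plin2 1.68 and 1.17 (adjusted p = 6.44e-06) and Psap 1.11 and 0.69 (adjusted p = 2.09e-06). The mean level of Cd36 (± SD, n = 3) was 1396 ± 30.2 CPM untreated and 4377 ± 295 CPM with OxLDL in WT, and 2746 ± 112 CPM and 5445 ± 260 CPM in R150X. That of Plin2 was 395 ± 7.1 CPM and 1262 ± 32.4 CPM in WT, and 624 ± 9.87 CPM and 1405 ± 48.6 CPM in R150X, so for both genes the smaller R150X response went with higher mean levels in both conditions. In the lysosome list 18 of 43 members passed the test of the difference, all 18 lower in R150X, in the lipid-associated macrophage list 23 of 26, all 23 lower, and in the NRF2 list 21 of 29, all 21 lower. Over all genes the 1276 differences were 796 lower and 480 higher. Among genes that rose in WT and passed, 526 were lower and 23 higher in R150X. Among those that fell in WT, 153 were lower and 387 higher. Lower differences among genes that rose were thus not particular to the lists just named, and picking genes by their WT rise favours them. Of the interferon-stimulated genes 5 of 36 passed the test of the difference, and of the cholesterol synthesis genes 4 of 24, against 15.5% of all genes called in WT. Ifit1, with -5.77 in WT and -5.72 in R150X, was not called different (difference 0.05 ± 0.20 SE, adjusted p = 0.93). Il1b fell farther in R150X (-5.53 and -7.81, adjusted p = 2.09e-06), as did Cd74 (-0.67 and -2.06, adjusted p = 2.03e-09) and Mmp9 (-1.64 and -2.93, adjusted p = 2.03e-09). The ATF4 list went the other way: 18 of 31 members passed, 16 of them higher in R150X, and for tRNA synthetases 8 of 18, all 8 higher. Scd1 fell in WT and had 0.32 in R150X (adjusted p = 7.79e-08), and Ppbp rose in WT and had -0.6 in R150X (adjusted p = 1.47e-10). Col1a1 fell less in R150X (-1.34 and -0.91, adjusted p = 0.000132), so the change in stromal mRNA differed between genotypes as well, and its part in these differences was not tested.

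**Figure D5:**
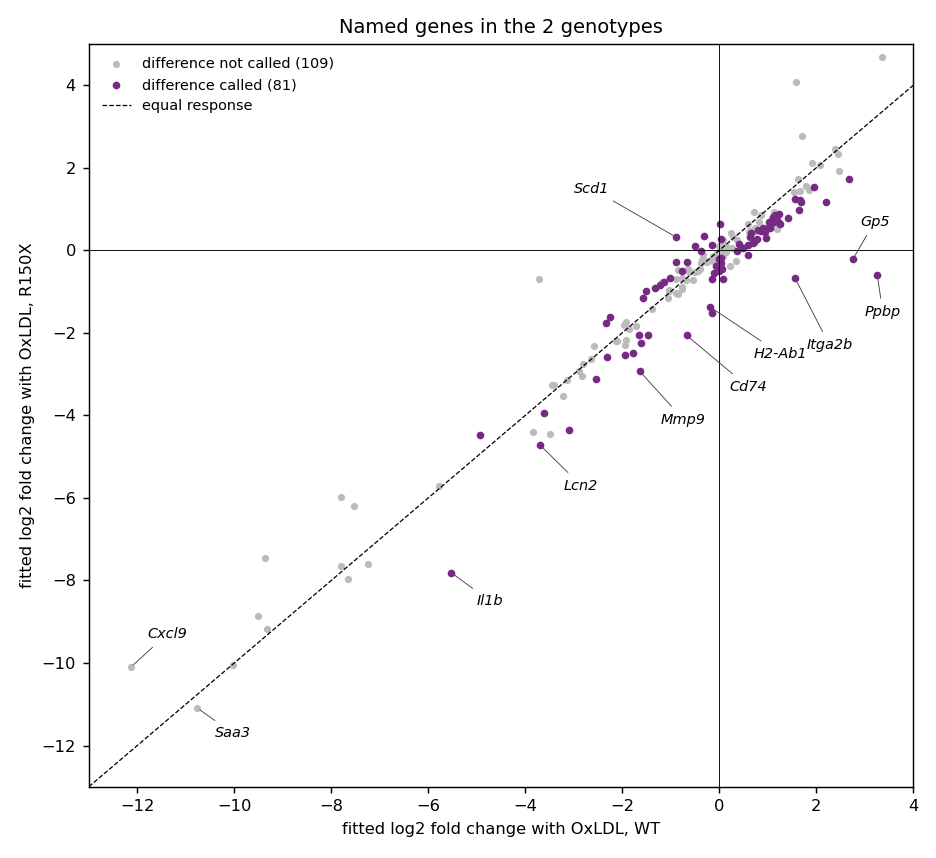
Fitted log2 fold change with OxLDL in R150X macrophages (vertical axis) against that in WT macrophages (horizontal axis) for the 190 genes named by rule other than Xist. Purple points are the 81 whose difference passed an edgeR adjusted p of 0.05, grey points the 109 that did not, and the dashed line marks an equal response. Over all genes tested 8.32% passed, and many of the genes shown were picked by their WT values. Most points lie near the line, Ppbp, Itga2b and Gp5 lie far below it on the right, and Scd1 lies above it.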

How the data were processed

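RNA from cultured BMDMs was extracted with an RNeasy kit and made into libraries with a Hieff kit, per the labels' protocols. The authors' deposited table holds raw read counts per gene. FastQC, HISAT2, featureCounts and DESeq2 are named, with the builds mm10 and GRCm38, per the submitters' processing notes, and versions, strand setting and treatment of multiply mapped reads are not given in the sources used here. Of 54532 identifiers, 54495 matched the GENCODE vM21 annotation (GRCm38) and 29313 had a read in any library.

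The counts of all 12 libraries were fitted with edgeR 4.0.16 in R 4.3.3 (quasi-likelihood test, TMM scaling, filterByExpr, 1 coefficient per group), which left 15338 genes, with Benjamini-Hochberg adjustment over all of them and a threshold of 0.05. The biological coefficient of variation was 0.0608. SE is the log2 fold change divided by the root of F. CPM values are TMM-scaled. Counting intervals are exact at 95% and, like the floor of 3 counts, cover counting error only. The fit was also run on simulated counts in which few genes changed, in equal numbers up and down. These data differ from that setting, so the simulation cannot judge the scaling here.

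Named genes are a set of anchors chosen by hand, the 10 highest and 10 lowest called genes with at least 5 CPM, no overlap and an approved symbol, and in each list the 3 called members with the smallest p and the most abundant member not called. Other genes are named with their log2 fold change from the same fit. Members and lists were chosen with earlier results of these data known. Some genes are in several lists, so list counts are not all separate observations. Calr and Pdia3, for example, are in the MHC class I and the endoplasmic reticulum lists, and Ptgs2 is in the cytokine and the eicosanoid lists. Alternatives were DESeq2 1.42.0, DESeq2's size factors, library size alone, the 6 WT libraries alone, 2 other filters on low counts, a replicate block, and each WT library left out in turn. Promoters are from RefSeq (GRCm38.p6, 32851 promoters of 27025 symbols), searched for motifs on both strands. A few list members and the anchors among them are not reported here.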

Additional observations from a re-analysis of the deposited data

Results flagged for a closer look

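Of the 191 genes named by rule, 82 responded to OxLDL differently in R150X and WT macrophages by the test of the difference in the 12-library edgeR fit. That test passed for 8.32% of all genes and 15.5% of those called in WT. Many named genes were picked by their values in the WT comparison, whose libraries also enter the difference. The count of 82 is therefore not a result about these genes as a set. The values in brackets are log2 differences of the response, R150X minus WT.

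Genes of lipid uptake, storage and efflux that rose in WT had a smaller response in R150X: Cd36 (-0.66), Lpl (-0.48), Plin2 (-0.51), Fabp4 (-0.57), Abcg1 (-0.38), Apoe (-0.51), Mgll (-0.45), Lipa (-0.30), Mylip (-0.45), Cpt1a (-0.29) and Ucp2 (-0.46). A smaller response was not always a lower level: mean Cd36 was 2746 CPM untreated and 5445 CPM with OxLDL in R150X against 1396 CPM and 4377 CPM in WT, and mean Lpl 6289 CPM and 9243 CPM against 3980.4 CPM and 8162 CPM. Lysosomal, autophagy and sphingolipid genes that rose in WT also had smaller responses in R150X: Gpnmb (-0.36), Ctsd (-0.36), Psap (-0.42), Ctsb (-0.30), Gabarapl1 (-0.30), Atp6v0d2 (-0.43), Pld3 (-0.36) and Abhd12 (-0.23). So did genes of lipid-associated macrophages and efferocytosis, Trem2 (-0.36), Spp1 (-0.45, with a log2 fold change of 0.05 in R150X), Lgals3 (-0.62), Mfge8 (-0.52), Pla2g7 (-0.49) and Cd5l (-0.40), and antioxidant, iron and immediate-early genes, Hmox1 (-0.26), Srxn1 (-0.51), Cat (-0.33), Gsta3 (-0.96), Tfrc (-0.64), Egr2 (-0.67) and Atf3 (-0.53). Ccdc148 (-1.04) followed them. The rise in WT was met by a log2 fold change below 0 in R150X for Ppbp (-3.86), H2-DMa (-0.72), Itga2b (-2.22) and Gp5 (-2.97). Pparg (-0.38) was only just below 0 in R150X, since its difference was about the size of its WT rise.

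Inflammatory, presentation and other genes that fell in WT had a more negative log2 fold change in R150X: Il1b (-2.28), Ccl2 (-0.58), Sod2 (-0.59), Cd14 (-0.63), C3 (-0.35), Ptgs2 (-1.25), Cd74 (-1.39), Itgal (-0.26), Mmp9 (-1.30) and Cyp51 (-0.39). The neutrophil markers Lcn2 (-1.04), Ngp (-0.73) and S100a9 (-0.57) and the B cell marker Blnk (-0.55) did as well.

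Genes that fell in WT and had a smaller response in R150X were Irf7 (0.46), Slc7a5 (0.41), Aldh1l2 (0.53), Gars (0.36, with a log2 fold change of -0.02 in R150X), Cp (0.63), Mki67 (0.61) and Ccnd2 (0.37), the stromal and endothelial markers Postn (0.56), Sparc (0.38), Col1a1 (0.43), Cdh5 (0.34) and Kdr (0.38), and Fscn1 (0.27). A fall in WT was met by a log2 fold change above 0 in R150X for Scd1 (1.21), Atf4 (0.28), Aars (0.61), Ebf1 (0.66) and Xist (5.19). Xist rests on 2 reads in the WT OxLDL libraries.

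Among genes not called in WT, the response was lower in R150X for Csf1r (-0.50), Dhcr7 (-0.31), Acaa1a (-0.43), Tkt (-0.34), Cebpb (-0.49), Pkm (-0.20), Itgb5 (-0.22), H2-Ab1 (-1.19), Pf4 (-0.77) and Dcstamp (-1.38) and higher for Nars (0.24) and Cxcl12 (0.64).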

How the results depend on the processing

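Of the 5 counts that summarise the comparison, 2 moved by more than 1.5 times: the genes that rose, from 3481 to 2244 by library size alone, and those changed at least 2-fold, from 1455 to 812 with a filter at a mean of 5 CPM. Over the 6 libraries left out in turn, 6065 to 6301 genes changed, 2955 to 3112 rose, 3110 to 3199 fell, 1395 to 1457 changed at least 2-fold, and 893 to 1148 differed between genotypes. With the replicate number as a block, 6848 genes changed, 3350 up and 3498 down, 1424 at least 2-fold, and 1143 differed between genotypes. Whether the replicate numbers pair the samples could not be told from the counts. The deviations of same-numbered untreated and OxLDL libraries correlated at -0.0013, 0.0097 and 0.042, and not every library correlated best with its own number. Over all pairs of numbers the correlations ran from -0.0498 to 0.0455, too near 0 to decide. DESeq2's Wald test called 6271 genes. Over the genes named, 1 value reversed: Cxcl12 was at -0.11 (adjusted p = 0.0228) by library size alone against 0.01 and not called. A further 25 values lost and 18 gained their call, and 2897 kept direction and call. List medians changed sign only for scavenger receptors, the aryl hydrocarbon receptor, eicosanoid, T and NK cell and erythroid lists, and 42 list values moved while 1050 did not. With the 5 CPM filter megakaryocyte rises went from 6 to 2 and mast cell falls from 3 to 1, since fewer genes were tested. The causes of the other shifts were not tested. With 3 libraries a group, 3 reads were 0.158 to 0.209 CPM, and changes near that level could not be resolved.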

Other observations

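Gene families were chosen after their values were seen. Some hold members of the lists above (Psmb8, Psmb9, Psmb10, Gbp2, Gbp3, Gbp5, Igtp, Irgm1, Clec10a, Clec7a, Clec9a, Adgre1 and Il4ra), so they are not separate from them, and their counts are descriptions beside the 22.7% of all genes that rose and the 23.1% that fell. Of 82 cytosolic ribosomal protein genes tested, 57 rose and 3 fell (median log2 fold change 0.24). Without TMM, by library size alone, 28 rose and 5 fell (median 0.12). Rps27a, the largest rise in that family, rested on OxLDL replicate 3: it had 86.5, 73.2 and 79.7 CPM untreated and 94.9, 103 and 311 CPM with OxLDL, and without that library its log2 fold change was 0.31 (edgeR adjusted p = 0.41). Of 38 proteasome subunits, 25 fell and 3 rose (median -0.19), and 16 fell without untreated replicate 1, while Psmb5, a constitutive catalytic subunit, rose by 0.25 ± 0.084 with a call that some alternatives did not keep. Of 37 nuclear-encoded complex I subunits, 14 rose and 0 fell (median 0.20), and by library size alone 4 rose and 0 fell. The rises numbered 6 without OxLDL replicate 1, 7 without untreated replicate 2, 9 without untreated replicate 1 and 9 by DESeq2's Wald test.

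Interferon-induced families fell as well, though they hold close paralogs between which reads may be shared. All 8 Schlafens tested fell (median -1.21), among them Slfn4, from 23.9, 21.7 and 22.6 CPM to 0.815, 0.953 and 0.904 CPM, and Slfn2, from 208, 197 and 196 CPM to 88.2, 85.8 and 87.9 CPM. Of 14 genes of the Ifi200 family, which sense nucleic acids, 13 fell (median -2.06). Of 17 guanylate-binding and immunity-related GTPases, 5 of which are also in the interferon list, 16 fell and 1 rose (median -3.29, and -3.25 with the gene that had no OxLDL read at its bound), Iigp1 from 50.2, 47.3 and 44.2 CPM to 2.38, 1.36 and 1.67 CPM. The rise was lost under 10 of the alternatives, among them library size alone and DESeq2's size factors. Rnf213, a large interferon-induced ubiquitin ligase, had 689.6, 722 and 709.96 CPM and then 140.2, 143 and 147 CPM. Of 10 class Ib genes of the H2-Q and H2-T families, 9 fell and 0 rose (median -1.58), but these genes have near-identical copies and their values are uncertain.

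Surface receptors moved both ways. Of 10 MS4A genes, 7 fell and 1 rose (median -1.01): Ms4a4c and Ms4a6d fell (-6.54 ± 0.16 and -1.18 ± 0.058) and Ms4a7 rose (0.27 ± 0.047). Of 21 C-type lectins, 10 fell and 7 rose (6 and 6 of the 13 with a mean of at least 5 CPM), with Clec4e, the receptor Mincle, at 220.04, 221 and 209 CPM and then 4.95, 4.29 and 3.55 CPM. Of 17 adhesion G protein-coupled receptors, 11 fell and 1 rose (median -0.78). Of 5 leukocyte immunoglobulin-like receptors, 4 rose and 0 fell (median 0.79), with Lilr4b at 420.1, 435 and 404 CPM and then 1130, 1155 and 1083 CPM. Lilr4b and its close paralog Lilrb4a may share reads, so their values are uncertain. Of 27 interleukin receptors, 10 fell and 7 rose, and Il7r had 165, 170.4 and 164 CPM and then 378, 368 and 330.4 CPM. The formyl peptide receptors Fpr1 and Fpr2, which detect bacterial peptides, fell by 4.65 ± 0.079 and 5.02 ± 0.12 on the log2 scale. Ass1, which makes the arginine precursor argininosuccinate, had 51.8, 42.4 and 44.1 CPM and then 3.57, 3.13 and 3.62 CPM, and Cd38, an NAD-consuming ectoenzyme, 97.9, 99.1 and 95.7 CPM and then 13.5, 13 and 10.3 CPM.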
